A study of Rattus norvegicus with 8 samples.

Results

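The data described are the 4 arrays of frontal cortex RNA from saline-treated rats, selected from the 8 arrays of the series by the word saline in the sample title. Each came from 1 male Sprague-Dawley rat, an outbred albino laboratory strain, that weighed about 200 g at the start and received saline for 21 days. The other arrays came from rats given olanzapine, an antipsychotic, at 2 mg/kg/day by intraperitoneal injection, and their values are not used here. Rats had been assigned at random, 20 to each group, and the 4 saline animals on arrays carry the numbers 14, 15, 17 and 19, by which the arrays are named. The description covers the 20826 of 31099 probe sets that were not controls and carried exactly 1 gene symbol. They stood for 14217 genes, and where a gene had several probe sets it was represented by the brightest. Of the remaining probe sets 436 carried several symbols, 9780 carried none and 57 were controls. A single group has no comparison between groups and therefore no test, and the spread between its 4 arrays holds the differences between animals and the technical differences together.

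The frontal cortex holds excitatory pyramidal neurons that project to other regions, GABAergic interneurons that inhibit them locally, astrocytes, myelin-forming oligodendrocytes and their precursors, microglia and the cells of blood vessels. Immediate early genes are transcribed within minutes of synaptic or hormonal stimulation from factors already present in the cell, and the products of many of them are transcription factors or phosphatases that end the signal. RNA of a dissected block of tissue mixes all of these cells, so a level reports the tissue and not a cell type.

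An array reads each transcript through short oligonucleotide probes whose brightness is combined into the intensity, in arbitrary linear units. The deposited intensities had been scaled so that the mean after removal of the lowest and highest 2% of values was 500.2 on every saline array. The median intensity was 159 to 167 on saline 14, saline 15 and saline 17 and 191 on saline 19, and the 98th percentile was 5618 on saline 19 against 6174 to 6287 on the other 3. Saline 19 was thus flatter in scale, lower at the bright end and higher at the dim end. Over all 31042 non-control probe sets the Spearman correlation of saline 15 with the other arrays was 0.899 to 0.905, while the other pairs reached 0.928 to 0.932. These correlations are across probe sets, which are not independent. The ratio of the 3' to the 5' control probe sets of GAPDH was 4.55 to 5.99, and that of beta-actin was 7.74 in saline 17, 10.4 in saline 14, 16.7 in saline 15 and 29.4 in saline 19, with the 5' actin probe set of saline 19 at an intensity of 29.4. The part of these differences in the results below was not tested.

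Mean intensity over the 4 arrays ran from 2.23 to 25676, with a median of 188.7 and quartiles of 72.8 and 569.5. The 90th percentile was 1682 and the 99th was 9116, which is 1207 times the 1st percentile of 7.55. Only 3397 probe sets (16.3%) had a mean above 1000 and 166 had a mean above 10000. The brightest 1% of probe sets contributed 17.9% of the summed intensity, and the brightest 10% contributed 62.6%. Rank by intensity is a description of signal, not of transcript amount: in the 4525 genes with several probe sets the brightest was a median of 6.51 times the dimmest, and in 1751 of these genes (38.7%) it was more than 10 times as bright.

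**Figure D1:**
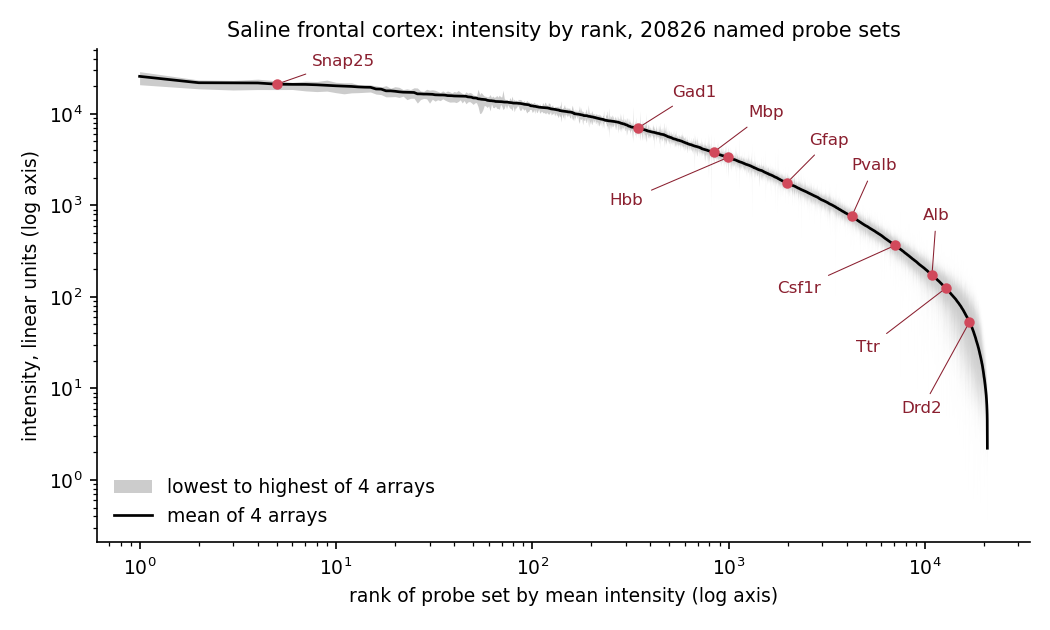
Intensity in linear units (log axis) against the rank of the 20826 named probe sets by their mean over the 4 saline arrays (log axis). The black line is the mean, the grey band runs from the lowest to the highest array, and red points mark the brightest probe set of 10 genes. The band is narrow at the bright end, where Snap25 stands at 21079, and widens toward the dim end, where Drd2 stands at 53.3.

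The 20 brightest genes are given by the known roles of their products. The brightest named probe set was that of COX1, the mitochondrially encoded catalytic subunit of cytochrome c oxidase, at 26289 in saline 14, 28890.4 in saline 15, 26715 in saline 17 and 20811 in saline 19, a mean of 25676 ± 3438 (SD, n = 4). COX2, the mitochondrially encoded copper-binding subunit of the same enzyme, had a mean of 20246 ± 2214, and Vdac1, the channel of the outer mitochondrial membrane, 19927 ± 2116. Membrane traffic was represented by Gosr1, a SNARE protein of the Golgi, at 21873 ± 2103, by Cltc, the heavy chain of clathrin, at 21748 ± 2364, by Snap25, a SNARE protein of the presynaptic membrane, at 21079 ± 1912, and by the synaptic vesicle protein gene Sv2b at 17830 ± 1679.

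Adhesion and the cytoskeleton supplied Ctnnb1, which encodes beta-catenin, at 21804 ± 2398, the tropomyosin gene Tpm3 at 20964 ± 2163, Dpysl2, whose product acts in axon growth, at 18632 ± 1617, the dynein light intermediate chain gene Dync1li2 at 17837 ± 2068 and the intermediate filament gene Sync at 17649 ± 2125. Cell type genes among the 20 brightest were Gja1, the connexin of astrocyte gap junctions, at 20984 ± 1711, Mef2c, a transcription factor of cortical neurons, at 20761 ± 2261, Gpm6b, a membrane glycoprotein gene of the myelin proteolipid family, at 20093 ± 2447, and Cpe, the carboxypeptidase that trims neuropeptide precursors, at 19501 ± 1492. The remainder were Dnajb6, a co-chaperone gene, at 18688 ± 1604, Mrfap1 at 19559 ± 1590, Zwint, named for a kinetochore protein, at 17408 ± 1860, and Myh1 at 19684.5 ± 1781. Saline 19 was the lowest array for each of these 20 genes, the same end of the scale at which its bright percentiles were low.

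Membership of the bright end was largely stable between animals. The brightest 1% by mean comprised 208 probe sets, of which 194 to 198 were also among the brightest 1% of a given array and 173 were so on all 4. The 20 brightest genes shared 18 to 20 members with those found under each of the 8 other processing choices tried.

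Among lists of genes known to mark cell types, the pan-neuronal and astrocyte lists had the highest levels. A list's level is given as the median percentile of its members among the 14217 genes, where 50 is the value for all genes. Pan-neuronal genes had the highest median of the 38 lists, 96.7, and 15 of 19 measured members were among the brightest 10% of genes. Beside Snap25 they included Eno2, the neuronal enolase, at 11933 ± 1150.5, Gap43, a growth cone protein gene, at 11612 ± 1109.6, and Map2, a dendritic microtubule protein gene, at 11036 ± 1133. The probe set of Syt1, the calcium sensor of vesicle release and an abundant neuronal transcript, was nonetheless at 106 ± 24.2. A dim probe set is thus not read here as a rare transcript.

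Genes of excitatory neurons had a median percentile of 63.2, with 8 of 24 among the brightest 10%. The brightest were Pcp4, a calmodulin-binding protein gene, at 5800.2 ± 1409, the layer V transcription factor genes Etv1 at 5541 ± 599 and Bcl11b at 4514 ± 818, and Crym, a thyroid hormone-binding protein gene, at 4164 ± 547. Among genes of GABAergic interneurons Gad1, the enzyme that makes GABA, was at 6984 ± 784, and the neuropeptide genes Cck at 4624 ± 229, Sst at 3063 ± 545 and Npy at 2308 ± 498. Pvalb, the calcium buffer of fast-spiking interneurons, was at 442 in saline 14 and 713 to 969 on the other 3 arrays. Erbb4, a neuregulin receptor of interneurons, was at 14.5 ± 6.81, among the dimmest genes of the array.

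Among glial lists the astrocyte genes stood at 91.6, with Glul, glutamine synthetase, at 12459 ± 872, Slc1a3, a glutamate transporter, at 8962 to 11076.5 and Aqp4, the astrocyte water channel, at 7189 ± 353, while Slc1a2, the main astrocyte glutamate transporter, read 204 ± 57.0. Oligodendrocyte genes stood at 61.5, oligodendrocyte precursor genes at 48.8 and microglial genes at 44.7. Cldn11, a tight junction protein gene of myelin, was at 10829.9 ± 2379, Pdgfra, the growth factor receptor of precursors, at 4984 ± 405, and Ctss, a lysosomal protease gene of microglia, at 6454 ± 552. Csf1r, the receptor that microglia need to survive, was at 366 ± 40.4. Endothelial genes stood at 58.5, led by Slc2a1, the glucose transporter of the blood-brain barrier, at 5010 ± 802, and pericyte and smooth muscle genes at 31.1.

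**Figure D2:**
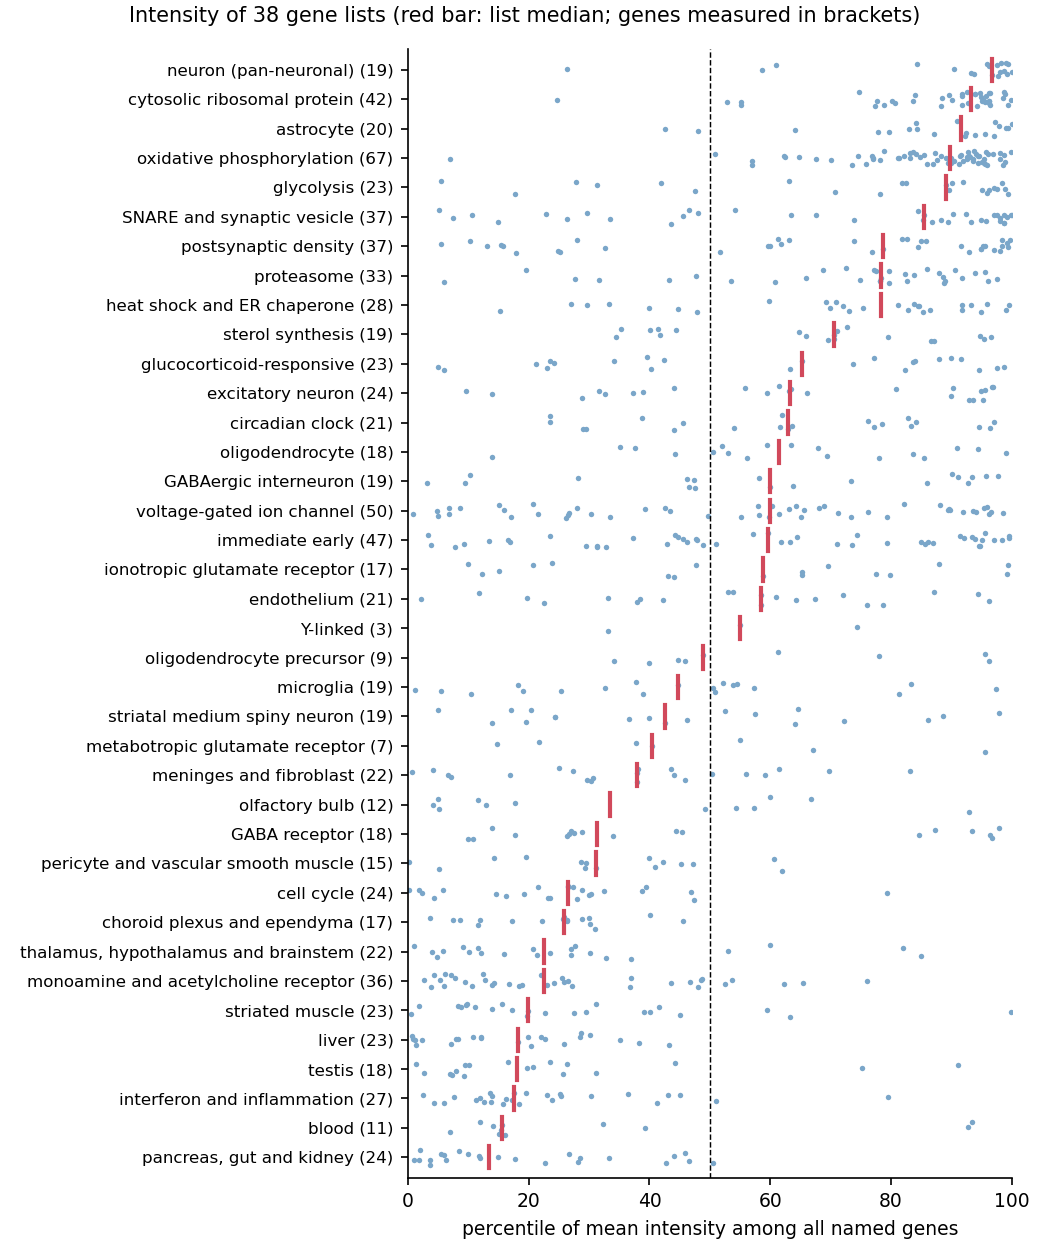
Percentile of mean intensity among 14217 genes (horizontal axis) for each measured gene (blue points) of 38 lists (rows, number of genes measured in brackets). Red bars are list medians and the dashed line is the median of all genes; pan-neuronal genes have the highest median, 96.7, and genes of pancreas, gut and kidney the lowest, 13.5.

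Lists of genes that mark tissue near the frontal cortex were examined next. None of the 17 measured choroid plexus and ependyma genes was in the brighter 50% of genes, and Ttr, transthyretin, which the choroid plexus makes in large amounts, was at 122 in saline 14, 128 in saline 17 and 158 in saline 19, with saline 15 lower still. Genes of striatal medium spiny neurons had a median percentile of 42.5. Their brightest members, Arpp21, a cAMP-regulated phosphoprotein gene, at 7333 ± 852, Pde10a, a phosphodiesterase gene, at 2008 ± 491, and the enkephalin precursor gene Penk at 1634 ± 348, are also transcribed in cortex. Drd1, the D1 dopamine receptor, was at 303 ± 90.3, Drd2, the D2 receptor, at 53.3 ± 24.7 and Adora2a, an adenosine receptor, at 76.7 ± 52.1. Olfactory bulb genes stood at 33.4 and genes of thalamus, hypothalamus and brainstem at 22.5. Of the meningeal and fibroblast genes Ptgds, prostaglandin D synthase, was brightest at 1333 ± 225 and Slc6a13, a meningeal GABA transporter, at 7.25 ± 1.90. Of 7 listed Y-linked genes 3 were measured. Eif2s3y was at 710 to 923 on the 4 arrays from male animals, Uty at 336 ± 81.9 and Sry, the testis-determining gene, at 141 ± 42.0. Sry lay under 222, the 90th percentile of the genes of other organs described next, and its signal is not read as a transcript.

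Genes of organs other than brain served as a reference for dim signal. The 86 measured genes of the liver, striated muscle, testis and pancreas, gut and kidney lists had a median intensity of 67.1 and a 90th percentile of 222, above which lay 7869 of all genes (55.3%). This reference was chosen after the data had been seen. Alb, albumin, read 174 ± 49.4, Ins1, insulin, 281 ± 38.8 and Cps1, a liver urea cycle enzyme, 210 ± 72.1, so intensities of that size were reached by transcripts that cortex is not known to make. The exceptions were Myh1 and Hook1. All 5 probe sets annotated as Myh1, the myosin of fast skeletal muscle fibres, read 9826 or more, while the other 22 measured striated muscle genes stopped at 474 ± 84.7 for Pygm, muscle glycogen phosphorylase. Hook1, a microtubule linker listed for testis, read 2546 ± 175. Whether the probes named Myh1 detect another transcript was not tested.

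Pathway lists separated housekeeping and synaptic machinery from receptors. Cytosolic ribosomal protein genes had a median percentile of 93.3, oxidative phosphorylation 89.8 and glycolysis 89.2. Rps29, a small-subunit protein gene, was at 17255 ± 1381, Cox7b, a nuclear-encoded cytochrome c oxidase subunit gene, at 16523 ± 1492 and Pgam1, phosphoglycerate mutase, at 10292 ± 1129.9. Genes of SNARE proteins and synaptic vesicles stood at 85.4, with Rab3a, a vesicle GTPase gene, at 11519 ± 1533 and Syp, synaptophysin, at 9417 ± 2164. Genes of the postsynaptic density stood at 78.7, with the calcineurin subunit genes Ppp3ca at 16067 ± 1341 and Ppp3cb at 12189.6 ± 1144, the scaffold gene Dlgap1 at 11709 ± 1159.8 and Shank1, another scaffold gene, at 8358 ± 880.

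Receptor lists lay lower. Ionotropic glutamate receptor genes stood at 58.8, led by the AMPA receptor subunit genes Gria3 at 12641 ± 1666 and Gria2 at 11771 ± 1057, and metabotropic ones at 40.5, led by Grm5 at 4467 ± 608. GABA receptor genes stood at 31.3, yet the GABA-B subunit genes Gabbr2 at 7137 ± 386 and Gabbr1 at 5700.4 ± 388 and the GABA-A subunit gene Gabrb2 at 5154 ± 392 were among the brightest 10%. Receptors for monoamines and acetylcholine stood at 22.5, and the brightest of the 36 measured was Htr2c, the serotonin 2C receptor, at 868 ± 97.6, followed by the alpha-adrenergic receptor genes Adra1d at 518 ± 150 and Adra2a at 451 ± 127. Genes of interferon response and inflammation stood at 17.6 and cell cycle genes at 26.5. Their brightest members were Vcam1, an endothelial adhesion protein gene, at 1064 ± 136 and Pcna, the sliding clamp of DNA replication, at 1044 ± 48.7.

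The spread between the 4 arrays depended on brightness. The median coefficient of variation (CV, SD over mean) of all named probe sets was 26.6%, with quartiles of 14.7% and 51.7%. In 20 classes of equal size by mean intensity the median CV was highest, 78.7%, in the third class, whose means ran from 28.0 to 41.8, and fell to 9.77% in the brightest class, whose means ran from 3209 to 25676. The highest array was a median of 7.03 times the lowest in the third class and 1.24 times in the brightest. Deviation by class also differed between arrays: saline 19 lay a median of 0.16 above the probe set mean on the log2 scale in the fifth class and 0.12 below it in the brightest, where the other 3 arrays lay 0.03 to 0.06 above.

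**Figure D3:**
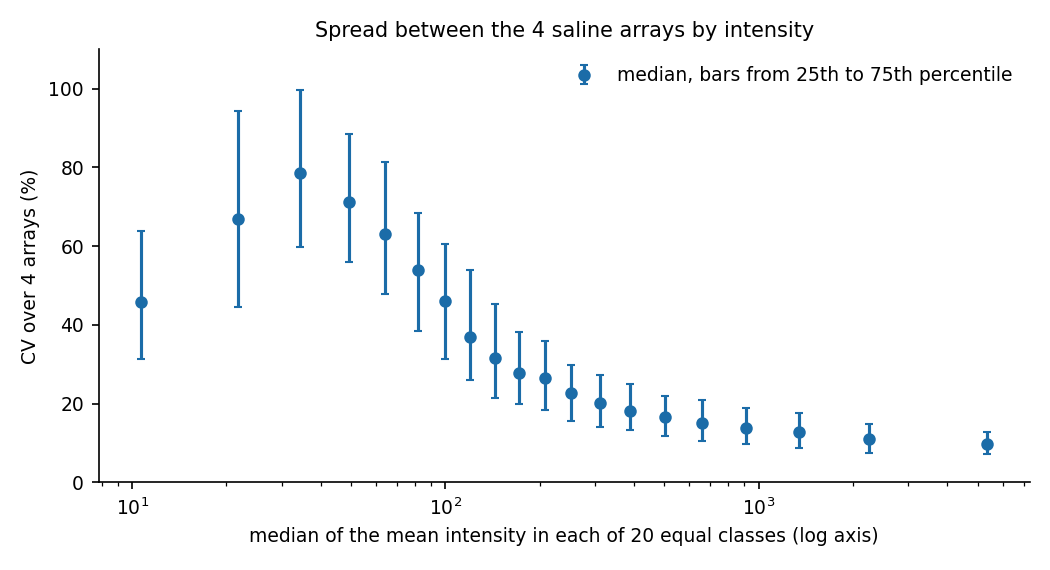
Coefficient of variation over the 4 saline arrays in percent (vertical axis) in 20 equal classes of mean intensity, placed at the median intensity of each class (log axis). Points are class medians and bars run from the 25th to the 75th percentile; the median peaks at 78.7% in the third class and falls to 9.77% in the brightest.

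The 8 genes of the brightest 10% with the smallest spread for their brightness are given next. They were picked for that spread, so their small values follow from the choice. An SD over so few arrays is imprecise, and some genes reach a small spread by sampling alone. Whether these genes are steadier than others was not tested. Cox7a2l, which helps to join respiratory complexes, read 2539 in saline 14, 2520.1 in saline 15, 2482 in saline 17 and 2539 in saline 19, a CV of 1.07%. Ndufb2, of complex I, had a CV of 1.27% and Uqcrh, of complex III, 1.37%. The others were Rnasek, Ablim1, an actin-binding protein gene, Fam241b, Macir and Ctnnd2, a catenin gene of neurons, with CVs of 1.21% to 1.77%.

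To account for brightness, the SD of log2 intensity of each probe set was divided by the median SD of those nearest in brightness. A ratio of 2 or more was called a large spread. An SD over 4 values is imprecise, and some probe sets reach this ratio by sampling alone. The call was made for 1055 of 20826 probe sets (5.07%) and for 699 of 14217 genes (4.92%). In the brighter 50% it was made for 642 of 10413 probe sets (6.17%). The share still changed with brightness. It was 0.19% in the class with means from 56.5 to 72.8, 10.7% in that from 130.9 to 157.1 and 6.62% in the brightest class. The 4.92% of all genes thus mixes unequal shares. The choice of array mattered: leaving out 1 array gave 1551 to 1624 probe sets, of which 582 (without saline 15) to 844 (without saline 14) were among the 1055. Saline 15 was the array farthest from the other 3 for 313 of the 642 bright probe sets (48.8%), low for 222 and high for 91. Over all 10413 bright probe sets it was farthest for 33.0%.

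The gene of largest spread was C10h5orf15, a membrane protein gene, at 900 in saline 14, 4217 in saline 15, 738 in saline 17 and 4814 in saline 19, a ratio of 8.59. Its arrays formed a low and a high pair. Its other probe set had a ratio of 0.40 and did not share that pattern. Tbccd1, a tubulin cofactor domain gene, was at 1525 in saline 14, 103 in saline 15, 1607 in saline 17 and 670.3 in saline 19, with saline 15 far below the rest. Pebp1, an inhibitor of Raf kinase, was at 6180 in saline 14, 12074 in saline 15, 5448 in saline 17 and 4873 in saline 19. Saline 15 stood above the rest there, and without it the ratio of Pebp1 was 1.40.

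In 2 genes saline 19 alone stood apart. Cfap418, a gene of photoreceptor cilia, was at 1105 to 1328 on the other 3 arrays and 4210 in saline 19, and Slc2a5, the fructose transporter, was at 793 to 836 on the other 3 and 198 in saline 19. Without saline 19 their ratios were 0.69 and 0.20. Fam111a, a protease gene of DNA replication, ranged from 13.5 in saline 17 to 879 in saline 15, and Irgq from 1082 in saline 19 to 4077 in saline 15. Cdh22, a cadherin gene, ranged from 1496 in saline 15 to 5764 in saline 19, and Tmem14a from 151 in saline 15 to 765 in saline 19. Ratios of 3.7 to 4.0 were found for Coq10b, a coenzyme Q-binding protein gene, Zfp36l2, whose product destabilises messenger RNA, Apbb2, an amyloid precursor-binding adaptor gene, and Usp47, a deubiquitinase gene. The ratio of Usp47 was 1.25 without saline 15, its lowest array at 41.0, and 3.86 to 4.61 without each of the others. Hbb, of red blood cells, and the immediate early genes Dusp1, Fos, Egr2, Homer1, Atf3 and Dusp6 made up the rest of the 20 genes of largest spread.

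Immediate early genes had the largest share of members with a large spread among the 38 lists, which were chosen with earlier results known. Of 47 measured members 16 (34.0%) had one, where 4.92% of all genes did, and the median ratio was 1.53 against 1.00 for all genes. Among members brighter than the probe set median the count was 15 of 34, beside 474 of 8478 genes (5.59%). In these 34 saline 14 was the highest array for 21, where it was the highest for 19.9% of the brighter genes. Saline 17 was the lowest for 14, where it was the lowest for 25% of the brighter genes, and saline 19 for 12, where it was the lowest for 26.4%. Leaving out any 1 array gave 14 to 18 members, beside 7.38% to 8.10% of all genes, and 9 members had a large spread with and without each array: Dusp1, Dusp6, Fos, Fosb, Atf3, Egr2, Nr4a3, Homer1 and Vgf. As a list they lay 0.26 above their own mean on the log2 scale in saline 14 and 0.13 above it in saline 15, and 0.13 below it in saline 19 and 0.27 below it in saline 17. Saline 14 was the highest array for 24 of 47 members, where it was the highest for 18.3% of all genes, and saline 17 was the lowest for 19, where it was the lowest for 26.3% of all genes. Quantile normalization left these means within 0.04 of the values given. When each array was divided by its median, saline 14 was again highest at 0.33, but saline 19 at -0.26 lay below saline 17 at -0.22. That scaling moved the median of all genes in saline 19 to -0.11.

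The phosphatase genes, whose products switch off MAP kinases, were among the most variable. Dusp1 was at 6199 in saline 14, 4822 in saline 15, 976 in saline 17 and 3472 in saline 19, a ratio of 8.03. Saline 17 was far below the rest. Dusp6 was at 11662 in saline 14, 9744 in saline 15, 5500.4 in saline 17 and 6604 in saline 19, a ratio of 3.57. Saline 14 and saline 15 were the higher pair, and in the next brightest probe set of Dusp6 saline 14 was again highest and saline 17 lowest, with a ratio of 2.76. Dusp5 and Dusp4, of the same family, had ratios of 0.86 and 1.12.

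The leucine zipper transcription factor genes followed Dusp1. Fos was at 2444 in saline 14, 1723 in saline 15, 439 in saline 17 and 1357 in saline 19, a ratio of 5.58. The other probe set of Fos, as those of Dusp1 and Egr2, lay in the dimmer 50% or had a ratio under 2. Atf3, a stress-induced factor, was at 647.5 in saline 14, 249 in saline 15, 24.5 in saline 17 and 219.5 in saline 19, with saline 17 below the median of 67.1 of the genes of other organs. Fosb, from which the stable factor delta FosB is also made, was at 1608 in saline 14, 1162 in saline 15, 815 in saline 17 and 614 in saline 19. Saline 14 was highest in all 3 genes and saline 17 lowest in Fos and Atf3 but not in Fosb. Of their dimerisation partners, Jun was at 2976 to 3659 with a ratio of 0.86. Jund, the brightest immediate early gene, was at 16280 in saline 14 and 11031 in saline 19 with a ratio of 1.77. Both ratios were below those of Fos, Atf3 and Fosb. Junb, at 113 to 152 with a ratio of 0.40, lay under 222, the 90th percentile of the genes of other organs. Its small spread is not read as a steady transcript.

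Zinc finger and nuclear receptor factors were divided in the same way. Egr2 was at 6097 in saline 14, 4446 in saline 15, 1987 in saline 17 and 3298 in saline 19, a ratio of 4.76. Egr1, the family member most used as a marker of neuronal activity, was at 15239 in saline 14, 15863 in saline 15, 12027 in saline 17 and 11473 in saline 19, a ratio of 1.64. Egr4 had a ratio of 1.65 and Egr3 a ratio of 0.35 at the dim mean of 64.9.

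Nr4a3, an orphan nuclear receptor gene, was at 2699 in saline 14, 1694 in saline 15, 1559 in saline 17 and 1035 in saline 19, and its next brightest probe set had the same highest and lowest arrays. Nr4a1, of the same family, had a ratio of 1.64, with saline 17 lowest at 97.5 and the others at 228 to 261. Nr4a2 was at 373 in saline 15 and 49.4 to 138 on the other 3 arrays. The Krüppel-like factor genes Klf4, at 76.8 to 312, and Klf10, at 1227 to 2062, had large spreads, while Klf6, at 3023 to 3914, and Klf2, at 344 to 583, did not. The ratio of Nr4a2 was 1.22 without saline 15, and that of Klf4 was 1.31 without saline 17. The 3 lower arrays of Nr4a2 and the lowest arrays of Klf4 and Nr4a1 lay under 222, the 90th percentile of the genes of other organs. The spreads of these genes rest in part on dim signal.

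Genes whose products act at the synapse or outside the cell had other orders. Homer1, whose short activity-induced form loosens postsynaptic scaffolds, was at 5489 in saline 14, 6175 in saline 15, 3802 in saline 17 and 2373 in saline 19, a ratio of 4.37. Its 5 probe sets had ratios of 0.95 to 5.46. Arc, which drives removal of AMPA receptors from synapses, was at 395 in saline 14, 612 in saline 15, 212 in saline 17 and 394 in saline 19. Vgf, a neuropeptide precursor gene, was at 4195 in saline 14, 5573 in saline 15, 3559.9 in saline 17 and 2928 in saline 19. Saline 15 was highest in these 3 genes and saline 17 lowest only in Arc, whose ratio of 2.34 became 1.55 without saline 17 and 1.95 without saline 15. Inhba, an activin subunit gene, Ier5 and Ccn1, a matrix protein gene, also had large spreads. Bdnf, brain-derived neurotrophic factor, at 280 to 437, Rgs2, a regulator of G proteins, at 756 to 898, Plk2, a kinase gene of synaptic scaling, at 639 to 729, and Ptgs2, cyclooxygenase 2, at 2255 to 3460.4 did not.

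**Figure D4:**
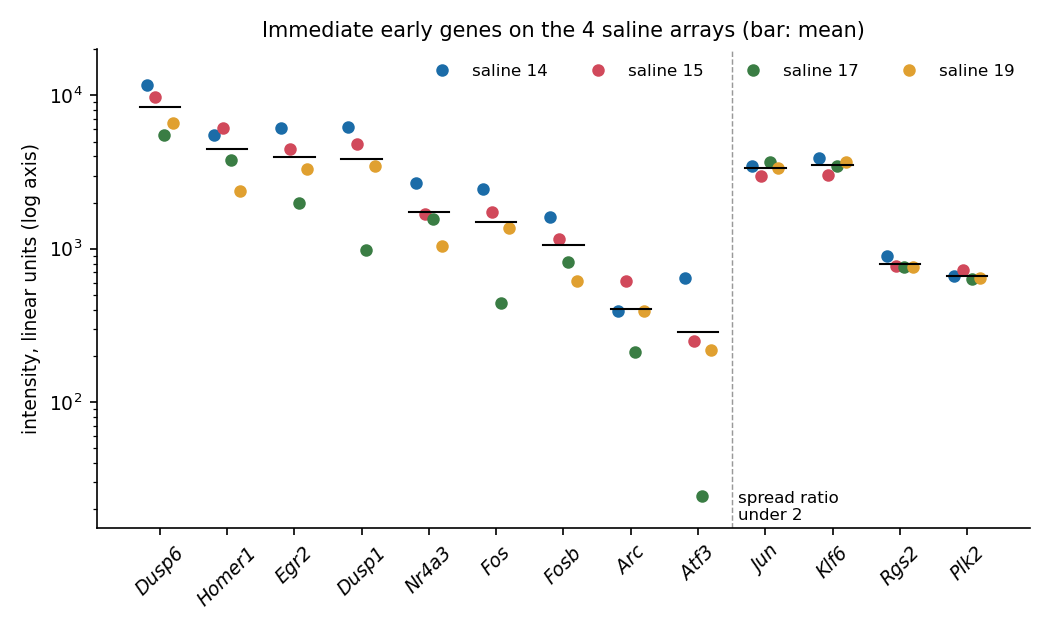
Intensity in linear units (log axis) of 13 immediate early genes on the 4 saline arrays (points coloured by array, black bars are means). The 9 genes left of the dashed line have a spread ratio of 2 or more, with Dusp1 from 976 to 6199 and Atf3 from 24.5 to 647.5, and the 4 to the right are below 2.

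The sequence before the transcription start was examined in the members with an entry in the RefSeq promoter table, which gives GRCr8 coordinates. The table held 36 of the 47 genes. It was searched over the 250 bases before the start, on both strands, for the cAMP response element TGACGTCA, for its part TGACG or the reverse complement CGTCA, which overlaps every whole element, and for the CArG box that serum response factor binds. TGACGTCA was found in 7 of the 36, compared with 2.64% of the 11700 promoters of genes on the array, the shorter part in 21 of 36 compared with 25.8%, and the CArG box in 5 of 36 compared with 1.24%. Among members with a large spread TGACGTCA was found in 2 of 11 and among the rest in 5 of 25. Those were Dusp1 and Vgf, and they are shown with Egr2, the member of large spread with a CArG box, and Homer1, in whose window none of the 3 was found. Capitals mark the matches.

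Dusp1: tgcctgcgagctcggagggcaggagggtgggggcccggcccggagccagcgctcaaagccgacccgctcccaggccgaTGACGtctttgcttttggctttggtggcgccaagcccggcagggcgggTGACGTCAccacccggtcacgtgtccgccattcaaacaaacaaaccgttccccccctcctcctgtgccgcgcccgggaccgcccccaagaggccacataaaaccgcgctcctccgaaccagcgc

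Egr2: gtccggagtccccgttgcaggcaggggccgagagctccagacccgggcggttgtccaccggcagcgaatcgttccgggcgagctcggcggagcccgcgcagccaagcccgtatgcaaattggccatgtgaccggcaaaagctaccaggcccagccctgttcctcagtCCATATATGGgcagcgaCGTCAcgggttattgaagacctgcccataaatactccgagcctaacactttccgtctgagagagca

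Vgf: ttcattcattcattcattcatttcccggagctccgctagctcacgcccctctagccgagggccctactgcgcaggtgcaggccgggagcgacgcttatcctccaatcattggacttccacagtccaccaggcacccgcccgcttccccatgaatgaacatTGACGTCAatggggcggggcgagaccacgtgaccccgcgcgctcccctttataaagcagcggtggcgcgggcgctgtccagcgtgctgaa

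Homer1: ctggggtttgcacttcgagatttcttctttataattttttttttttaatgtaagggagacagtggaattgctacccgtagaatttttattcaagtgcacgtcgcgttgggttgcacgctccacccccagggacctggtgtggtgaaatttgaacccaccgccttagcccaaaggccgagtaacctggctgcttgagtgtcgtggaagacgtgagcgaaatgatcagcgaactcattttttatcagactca

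The Dusp1 window is chr10:17184603-17184852 on the plus strand, with TGACGTCA starting at -124 from the transcription start and 1 separate TGACG. The Egr2 window is chr20:21054442-21054691 on the minus strand, with its CArG box at -83 and 1 CGTCA. The Vgf window is chr12:25277021-25277270 on the minus strand, with TGACGTCA at -90, and the Homer1 window is chr2:26278762-26279011 on the plus strand. A match describes the letters only, and a window without one says nothing of the factor.

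Oligodendrocyte genes had another order of animals. The list lay 0.30 above its mean on the log2 scale in saline 15 and 0.05 above in saline 17, and 0.17 below in saline 19 and 0.18 below in saline 14. Saline 15 was the highest array for 12 of 18 measured members, where it was the highest for 32.2% of all genes, while saline 19 was the lowest for 9 and saline 14 for 6, where they were the lowest for 22.5% and 26.1% of all genes. After quantile normalization saline 19 lay below saline 14, at -0.22 against -0.15, and with arrays divided by their medians at -0.31 against -0.11, while saline 15 was highest under both. Mbp, myelin basic protein, was at 3095 in saline 14, 5652 in saline 15, 3774 in saline 17 and 2691 in saline 19. Mobp, another protein of compact myelin, was at 1168 in saline 14, 2652 in saline 15, 1349 in saline 17 and 1045 in saline 19. Both were highest in saline 15, and Mbp and Mobp had ratios of 3.21 and 3.36. The next brightest probe set of Mobp had a ratio of 4.50 with the same highest and lowest arrays, while the 2 other probe sets of Mbp had ratios of 0.66 and 0.83. Cldn11 was at 8124 to 10918 on the other arrays and 13904 in saline 15. Of the 18 members 4 (22.2%) had a large spread, where 4.92% of all genes did. Similar shares were found for excitatory neurons, 5 of 24 (20.8%), pericytes and smooth muscle, 3 of 15 (20%), and blood, 2 of 11 (18.2%). Without saline 15 the ratios of Mobp, Cldn11 and Mbp were 1.20, 1.62 and 1.94, and none of the 4 oligodendrocyte genes kept the call. There were then 3 other members with a large spread (16.7% of the list), beside 8.1% of all genes. Cnp, a phosphodiesterase gene of myelin, was at 3046 in saline 15 and 1990 to 2538 on the others, a ratio of 1.63. In bulk tissue fewer cells of a type and less RNA per cell cannot be told apart, and the share of white matter in each dissection is not given.

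Saline 15 was also the high array for energy metabolism. It lay 0.14 above the list mean for oxidative phosphorylation, where it was highest for 42 of 67 genes, and 0.16 above for glycolysis, where it was highest for 14 of 23. It was highest for 32.2% of all genes and 33.3% of the brighter ones. Uqcrc1, a complex III subunit gene, was at 1398 in saline 15 and 502.5 to 934.5 on the others, and Cox6b1, of cytochrome c oxidase, at 8023 against 4812 to 5524, with a ratio of 0.86 once saline 15 was left out. Uqcr10, also of complex III, was highest in saline 17 at 3885. Circadian clock genes lay 0.18 below their mean in saline 15, which was lowest for 12 of 21, where it was lowest for 25.1% of all genes, although none of the 21 had a large spread. Bhlhe41, a repressor of the clock, was at 580.3 in saline 15 and 879 to 1027 on the others. Saline 15 is the array whose correlation with the other 3 was lowest.

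Genes of the response to glucocorticoid hormone had 4 of 23 members with a large spread, where 4.92% of all genes had one. They were Dusp1, Cdkn1a, Sgk1 and Tsc22d3. Sgk1, a kinase gene induced by corticosterone and present in oligodendrocytes as well as neurons, was at 6209 in saline 14, 10248 in saline 15, 4977 in saline 17 and 5111 in saline 19. Saline 15 stood alone, and without it the ratio fell from 3.56 to 1.41. The ratio of Tsc22d3 without saline 15 was 1.165, so neither gene kept the call. Cdkn1a, the cell cycle inhibitor p21, was at 1166 in saline 14, 1006 in saline 15, 349 in saline 17 and 565 in saline 19, the order of Dusp1 for its highest and lowest array. Fam107a, which glucocorticoids also induce, was at 8292 to 10027 with a ratio of 0.81.

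The range of the blood list over the arrays was 0.53 on the log2 scale, as was that of the immediate early list, but 9 of its 11 measured genes were in the dimmer 50%. Hbb, the beta chain of hemoglobin, was at 1974 in saline 14, 4229.5 in saline 15, 2806 in saline 17 and 4357 in saline 19, a ratio of 3.71. Saline 15 and saline 19 were high and saline 14 low. Bpgm, the red cell enzyme of bisphosphoglycerate, was at 2545 to 3477, Alas2, which makes heme in red cell precursors, at 105 to 304 and S100a8, of neutrophils, at 52.5 to 232. Without saline 14 the range of the blood list was 0.19. After quantile normalization the range was 0.51 for blood and 0.52 for the immediate early and the oligodendrocyte lists. Lists whose means barely differed between the animals were those of heat shock and ER chaperones, with a range of 0.01 over 28 genes, and the proteasome, with a range of 0.03 over 33 genes, against 0.08 for all genes. In the 23 brighter heat shock and ER chaperone genes the mean ran from 0.04 in saline 14 to -0.05 in saline 19.

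**Figure D5:**
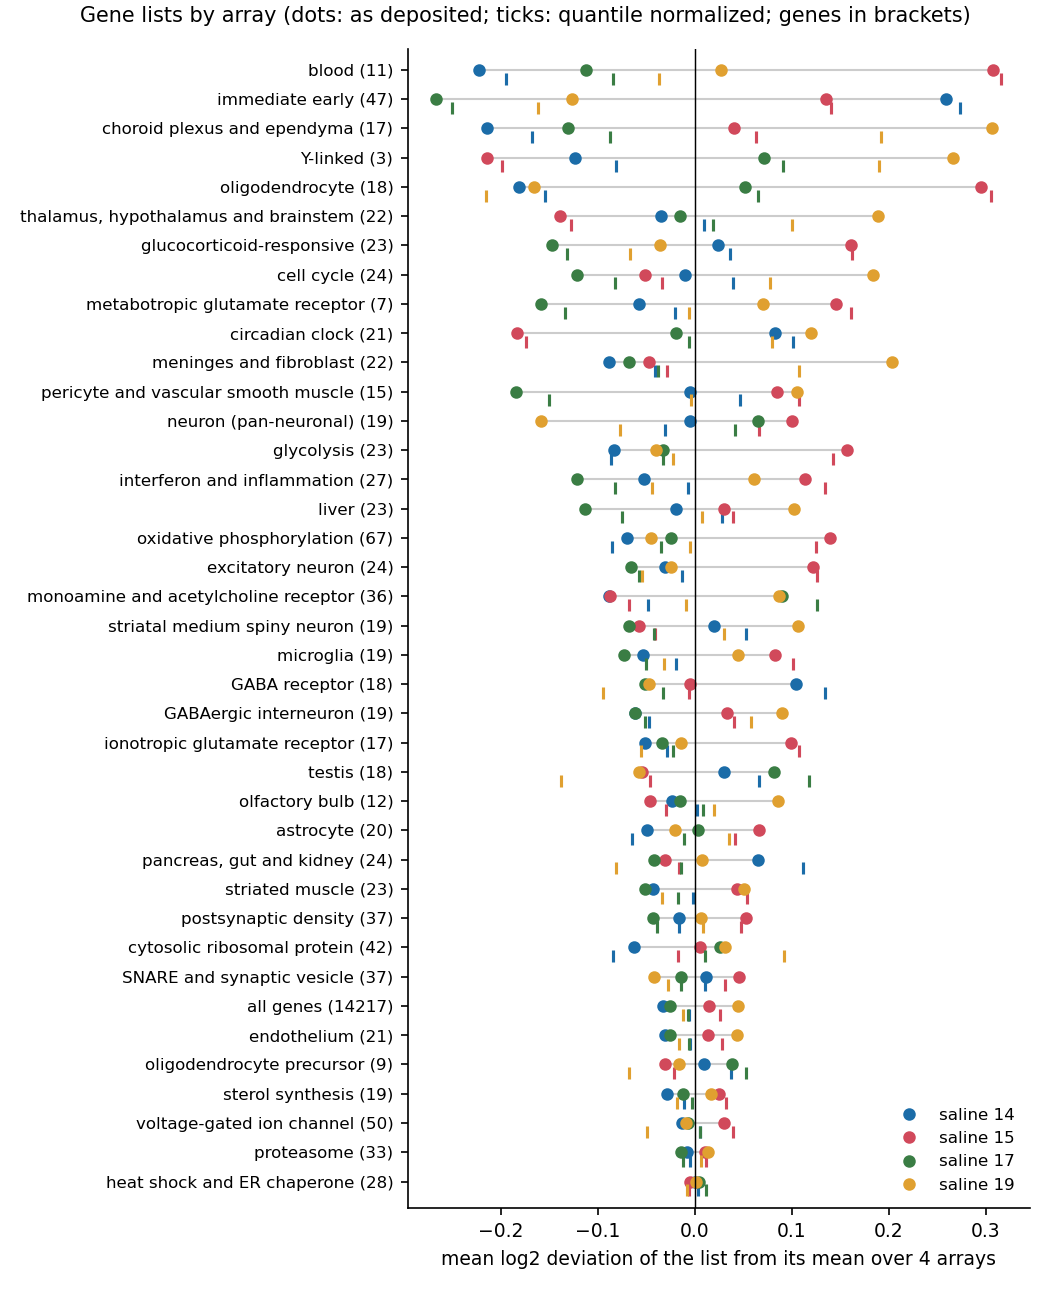
Mean log2 deviation of each gene list from its own mean over the 4 saline arrays (horizontal axis, points coloured by array), with the number of genes in brackets. Ticks below each row give the same after quantile normalization; immediate early genes run from -0.27 in saline 17 to 0.26 in saline 14, and heat shock and ER chaperone genes span 0.01.

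Probe sets of the same gene seldom shared a large spread. Among 1538 genes whose 2 brightest probe sets both lay in the brighter 50%, the brighter one had a large spread in 86, and the other then had one too in 14 of these 86 (16.3%), compared with 7.71% of the genes whose brighter probe set had none. The 14 genes, listed after their values were seen, were Cadm1, Dusp6, Slc24a2, Zfp36l2, Apc2, Cyfip2, Pcdh17, Nr4a3, Mobp, Slc24a4, Lig4, Igf1r, Ccnd1 and Ramac. In 8 of them both probe sets had the same highest array and in 10 the same lowest, where 29.2% and 29.3% of the 1538 genes did. Dusp6, Nr4a3 and Mobp were the members of the lists described above. Dusp1, Fos and Egr2, with 2 probe sets each, were not among the 14.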

How the data were processed

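Frontal cortex RNA of 8 rats had been hybridised to an Affymetrix rat array, and the 4 saline arrays were described here. The deposited value of a probe set is its intensity on a linear scale. Their mean after removal of the extreme 2% at either end was 500.2 on each saline array, so the authors had scaled them to a common value. No source used here states the scanner software, the background correction, how probes were summarised or detection calls. Differences that change with brightness remain after such scaling. The number of arrays limits the precision.

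Gene symbols came from a platform annotation of 2016 and were brought up to date through a GRCr8 table of RefSeq genes, matched on Entrez identifiers, which held 20758 of the 20826 named probe sets. Ranks, means, SDs and CVs were computed on deposited intensities, and spread ratios and list deviations on log2(intensity + 60.7), where the added value is the 25th percentile of the saline values. This understates differences of dim genes. Of 1041 list entries 914 were measured. The spread calculation was tested on simulated data. Python 3.11.15, numpy 2.4.6 and pandas 2.3.3 were used.

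The named genes were the 20 brightest, the 20 of largest spread ratio among genes above the probe set median, the 8 of smallest ratio in the brightest 10%, and in each list up to 4 brightest, 2 dimmest and 3 most variable members. Any member of the Y-linked, striatal, choroid plexus, blood and immediate early lists could be named. The lists and rules were chosen with earlier results of these data known. Alternatives left out each array, changed the scaling, the pseudocount or the filter, took medians in place of means or of the brightest probe set, or removed probe sets that can share probes with other transcripts. Ratios of single genes with an array left out keep the probe set of the gene. They, the counts of immediate early and oligodendrocyte genes under these settings, the promoter search, the reference of other organs and the comparison of probe sets of a gene were added after the data had been seen. No coordinates other than those of promoter windows were used.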

Additional observations from a re-analysis of the deposited data

Results flagged for a closer look

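With 4 arrays, a value was marked when the gap between the highest or lowest array and its neighbour was a larger part of the whole range than Dixon's 95% critical value, which chance gives in about 1 in 20 groups. In the brighter genes this held for 442 of 8478 (5.21%), so the marks below describe single arrays and no more.

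Of the 38 lists 2 were marked. Meningeal and fibroblast genes were high in saline 19, with a gap of 0.857 of the range, and voltage-gated ion channel genes were high in saline 15, with a gap of 0.861 of a range of only 0.04 on the log2 scale.

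Of 157 named genes 14 were marked, and 10 of these were low in saline 19, the array whose bright percentiles were lowest. Among them the gap was 0.927 for Ctnnb1, 0.900 for Dpysl2, 0.830 for Gja1, 0.835 for Gosr1, 0.870 for Mrfap1, 0.858 for Myh1, 0.958 for Gap43, 0.862 for Gria2 and 0.848 for Map2, with ranges of 0.26 to 0.35 on the log2 scale. The last of the 10 was Slc2a5, with a gap of 0.960 and a range of 1.80. Cfap418 was high in saline 19, with a gap of 0.865 and a range of 1.87. Adra1d was low in saline 17, with a gap of 0.918, and so was the immediate early gene Nr4a1, with a gap of 0.847. Rgs2 was high in saline 14, with a gap of 0.928 and a range of 0.23.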

How the results depend on the processing

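The alternatives shared 18 to 20 of the 20 brightest genes and kept 160 to 184 probe sets of the brightest 1% on every array. The number of lists above the median of all genes was 20 or 21 of 38. The range of the immediate early list was 0.40 to 0.65, beside 0.53 on the deposited intensities. Leaving out 1 array at a time gave 19 to 20 genes for the intensity rank of probe sets, 174 to 184 probe sets for the brightest 1%, 20 to 21 lists for the list levels and 0.40 to 0.54 for the list differences between animals. The median CV was 22.6% to 25.5% with 1 array left out, the lowest without saline 15, and 17.3% in the upper 60% of probe sets by mean intensity. The probe sets of large spread numbered 1551 to 1624 with 1 array left out, since an SD over 3 values varies more, and 915 to 1136 under the other settings. Which array was highest and lowest for a list depended on the scaling: both ends were the same for 21 of 38 lists after quantile normalization and for 8 of 38 when arrays were divided by their medians. With the brightest probe set of a gene chosen anew under each setting, of 1407 recomputed spread ratios of named genes 52 fell below 2 and 23 rose to 2 or more. No paired analysis was possible because a single group is described and no result comes from a test. The intensities carry no depth, so dim signal is the limit: in the classes with means between 16.1 and 72.8 the median CV was 63.1% to 78.7%.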
